A study of Mus musculus with 15 samples.

Results

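The Dlk1-Dio3 region of mouse chromosome 12 carries a polycistron, a single long transcript unit that holds many miRNA hairpins, running from miR-379 to miR-410. Its members were taken here as the table rows named for 1 of 33 miRNA numbers of that stretch, kept where 3 or more of the 15 libraries held an equalized count above 5. Of 65 rows with such names, 46 mature miRNAs passed and 19 did not, out of 1424 rows in the table and 818 that passed the same filter. The members come from 32 hairpins, 17 of them being 5p arms and 29 being 3p arms, and 14 hairpins gave both arms. No row carried the number of miR-758.

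The libraries are small RNA from whole lung of C57BL/6 mice, labelled 11 weeks of age, males and females together. WT mice are compared with mice homozygous for R213G, a variant of extracellular superoxide dismutase (EC-SOD, the secreted antioxidant enzyme that holds on to the matrix). Each mouse was dosed once into the trachea at an age of 8 to 12 weeks, either with bleomycin, a DNA-damaging drug that injures the lung (100 uL at 1 U/mL), or with phosphate-buffered saline (PBS), and its lungs were rinsed through the right ventricle and frozen 7 days later. WT gave 3 libraries after PBS and 4 after bleomycin, and R213G gave 4 after each. The labels call the R213G mice homozygous on a C57BL/6 background and name no tissue-specific driver. The tags of the R213G libraries and of the WT libraries form separate number ranges, so anything that went with the tags and the genotype cannot be told apart.

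The Dlk1-Dio3 region is imprinted: its noncoding RNAs (Meg3, Rian, Mirg) and its miRNAs are made from the maternal chromosome, and its protein-coding genes from the paternal one. The miRNAs are abundant in the embryo, the placenta and the brain and low in most adult tissues. In the lung the cluster is known from work on idiopathic pulmonary fibrosis, where miR-154 and related members were reported as raised and as responding to TGF-beta in fibroblasts. A miRNA finds its targets mainly through its seed, bases 2 to 8 of the mature strand, and each hairpin can release a 5p and a 3p strand.

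RefSeq (GRCm38.p6) gave a mature sequence for 43 of the 46 members, of 20 to 25 bases. Those on which the results turn are shown 5′ to 3′ with the seed in capitals, beginning with the 3p arms whose seeds are alike, then the abundant strands and the members that moved otherwise.
miR-379-3p: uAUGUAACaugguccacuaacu
miR-411-3p: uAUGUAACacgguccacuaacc
miR-410-3p: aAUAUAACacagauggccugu
miR-380-3p: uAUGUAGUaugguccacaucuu
miR-154-3p: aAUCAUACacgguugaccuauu
miR-485-3p: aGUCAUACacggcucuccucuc
miR-369-3p: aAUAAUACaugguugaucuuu
miR-376a-3p: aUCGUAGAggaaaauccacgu
miR-376b-3p: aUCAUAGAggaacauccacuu
miR-300-3p: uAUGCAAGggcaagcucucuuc
miR-381-3p: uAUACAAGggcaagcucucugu
miR-411-5p: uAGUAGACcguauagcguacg
miR-379-5p: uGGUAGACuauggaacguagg
miR-541-5p: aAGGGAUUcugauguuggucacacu
miR-134-5p: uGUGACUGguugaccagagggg
miR-494-3p: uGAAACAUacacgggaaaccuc
miR-409-3p: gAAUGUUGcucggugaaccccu
miR-382-5p: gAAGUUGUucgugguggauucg
miR-154-5p: uAGGUUAUccguguugccuucg
miR-329-3p: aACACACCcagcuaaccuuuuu
miR-668-3p: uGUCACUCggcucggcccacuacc
miR-376b-5p: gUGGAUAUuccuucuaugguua

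Among the 43 sequences only miR-379-3p and miR-411-3p shared a whole seed (AUGUAAC), and they differed at 2 of 22 bases overall. Other pairs were 1 seed base apart, counted from the 5′ end with the first-named member's base first: miR-376b-3p and miR-376a-3p (A4G), miR-300-3p and miR-381-3p (G4A), miR-485-3p and miR-154-3p (G2A), miR-154-3p and miR-369-3p (C4A), miR-379-5p and miR-411-5p (G2A), miR-379-3p and miR-410-3p (G4A), miR-411-3p and miR-410-3p (G4A), and miR-329-5p and miR-377-5p (U8G). The first 2 of these pairs differed at 3 of 21 and 3 of 22 bases, close enough that a counter which tolerates mismatches could pass reads between them. The sources used here do not give how mismatches were handled. The letters GGUNNAC, chosen after the sequences had been seen and looked for on the miRNA strand alone, stood in 12 of the 43 members (27.9%) and in 35 of 1679 mature mouse miRNAs of the same RefSeq table (2.08%), these 12 included.

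On GRCm38.p6 the hairpins of the members lay on the plus strand at chr12:109709060-109743795, a span of 34.736 kb from Mir379 to Mir410. In the GENCODE M21 annotation, 21 hairpins overlapped no other gene. The remaining 11 lay in the long noncoding gene Mirg, 7 in its introns and 4 in its exons (Mir134, Mir485, Mir377 and Mir410). Rows were matched to hairpins by name, since the sources used here do not give the authors' build.

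Values are log2 of 1 plus a count equalized between libraries, called the level below, and a difference of 1 is a 2-fold change of that sum, which understates the change of rare miRNAs. Library sums of equalized counts ran from 18087290 to 24759615, and they are not read depths. The lung markers of the marker lists were present in every library, with the epithelial list at 0.982% to 1.25% of the sum and the endothelial list at 4.26% to 6.18%. WT PBS replicate 3 stood apart before any comparison: of the 46 members, 42 had their highest WT PBS value in it. Its median member was 0.74 above the mean of the other WT PBS libraries, against 0.13 for the median of all 818 tested miRNAs. The WT differences of the members described below are therefore given with and without that library.

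The members differed widely in level. Over all 15 libraries miR-411-5p (11.82 to 12.92) and miR-541-5p (11.05 to 12.15) were the highest, and both together made up more of the members' summed count than all the others. They were followed by miR-410-3p (8.87 to 10.39), miR-300-3p (9.14 to 10.08), miR-381-3p (9.16 to 10.43), miR-409-3p (7.67 to 9.20), miR-411-3p (up to 8.39) and miR-379-5p (7.19 to 8.67). The ranges of neighbours in this order overlapped, except those of miR-541-5p and miR-410-3p. Of the 46 members, 35 had counts above 5 in all 15 libraries. The filter was passed through bleomycin libraries alone by 1 member, miR-154-3p. Just inside it lay miR-154-3p, miR-134-3p and miR-539-5p, whose third-highest counts were 10.9, 8.38 and 5.92. Just outside lay miR-543-5p, miR-1197-3p and miR-300-5p, at 4.76, 4.17 and 2.95.

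**Figure D1:**
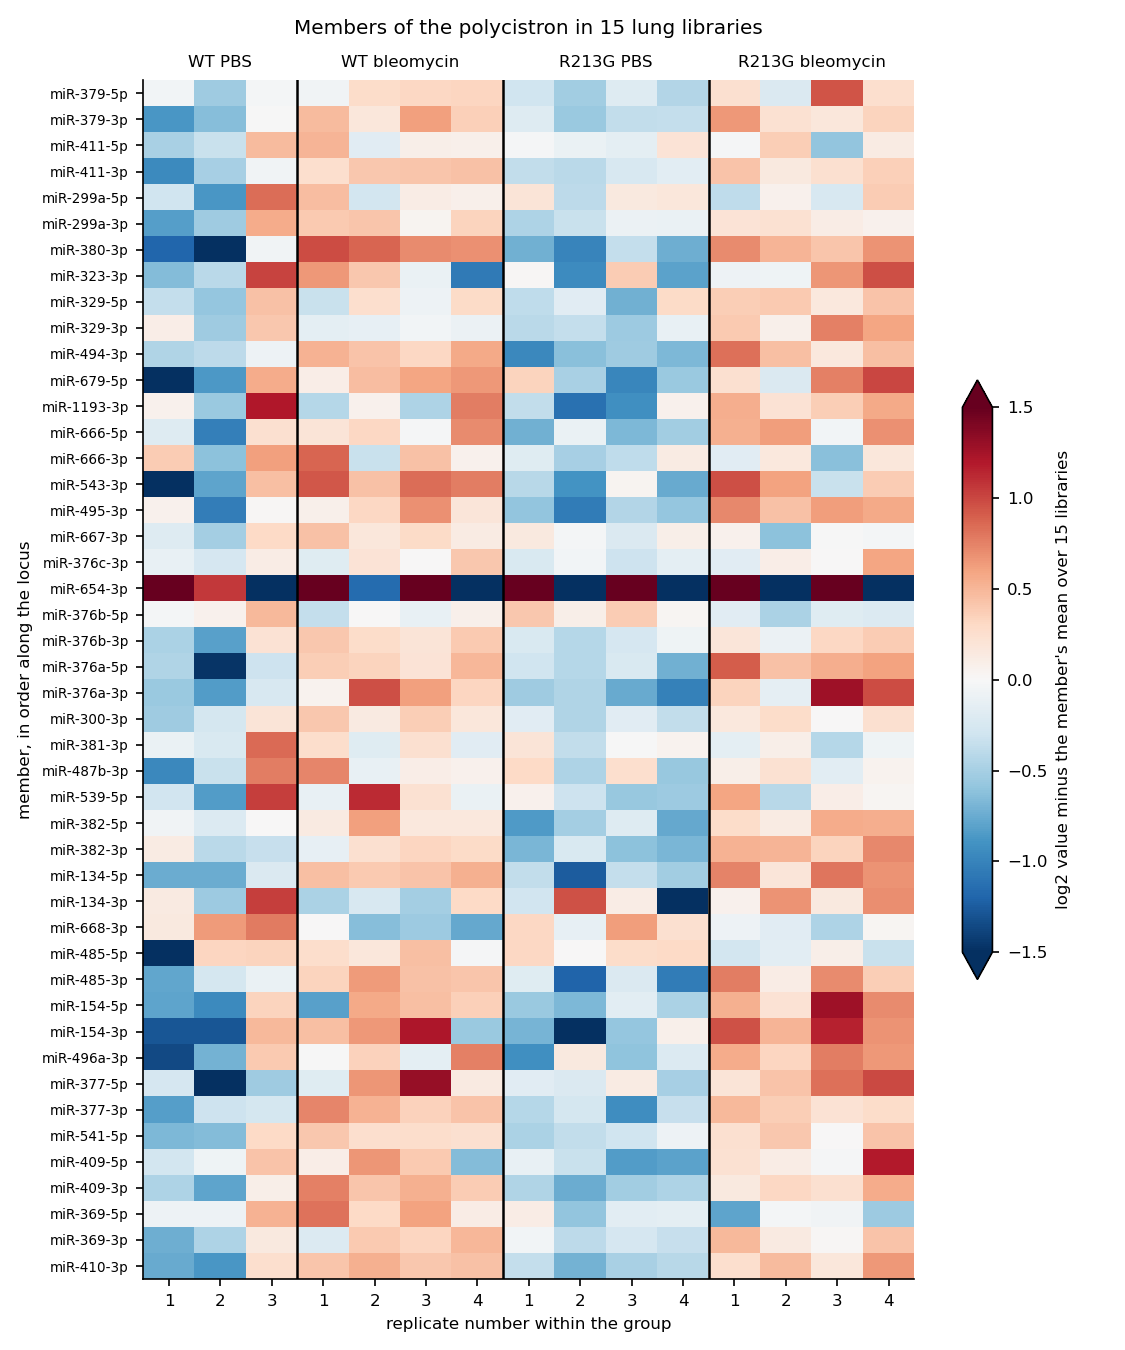
Rows are the 46 members in order along the locus, columns the 15 libraries by group and replicate, and colour the log2 level minus that member's mean over the libraries (scale ends at 1.5 in either direction). Bleomycin columns are mostly red and PBS columns mostly blue, except WT PBS replicate 3, which holds the highest WT PBS value of 42 members, and miR-654-3p, which was at 0 in 6 libraries of both treatments.

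Bleomycin was followed by higher levels of many members in both genotypes. In WT lungs 17 of 46 members rose and 1 fell, beside 16.4% of all tested miRNAs rising and 10.3% falling (adjusted p under 0.05, limma). In R213G lungs 25 rose and 1 fell, beside 22.2% rising and 19.8% falling. The 25 include miR-154-3p, which passed the filter only through bleomycin libraries, where it is high, and 24 rose without it. Passing in that way favours a rise, so its call is not independent of the filter. The median difference of the members was 0.57 in WT (all tested 0.05) and 0.72 in R213G (all tested 0.05). In each genotype 38 of the 46 differences were above 0 (82.6%), beside 53.2% of all tested miRNAs in WT and 51.6% in R213G. The sign was the same in both genotypes for 36 members (78.3%), close to the 80.1% of all tested miRNAs. In whole lung, a change in the number of cells that make a miRNA and a change in its amount per cell cannot be told apart.

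Without WT PBS replicate 3, 26 members rose in WT, with a median of 0.85, beside 19.9% of all tested miRNAs. All 17 members called with that library were among these 26, and the 9 added were miR-299a-3p, miR-679-5p, miR-666-5p, miR-495-3p, miR-667-3p, miR-487b-3p, miR-154-5p, miR-154-3p and miR-496a-3p. Of the 9, miR-154-3p again passed the filter only through bleomycin libraries. Leaving out WT PBS replicate 1 instead gave 11 rising members, beside 12.7% of all tested miRNAs, and leaving out WT PBS replicate 2 gave 10, beside 12.3%. With the compared groups alone in the fit, 12 members rose in WT, beside 13.2%, and 30 in R213G, beside 23.7%.

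Every bleomycin library lay above every PBS library for 14 members in WT, beside 18.7% of all tested miRNAs. In R213G this held for 26 members, beside 21.9%, and the 26 include miR-154-3p, which passed the filter only through bleomycin libraries. The reverse order, every bleomycin library below every PBS library, was seen in 1 member per genotype, miR-668-3p in WT and miR-376b-5p in R213G.

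**Figure D2:**
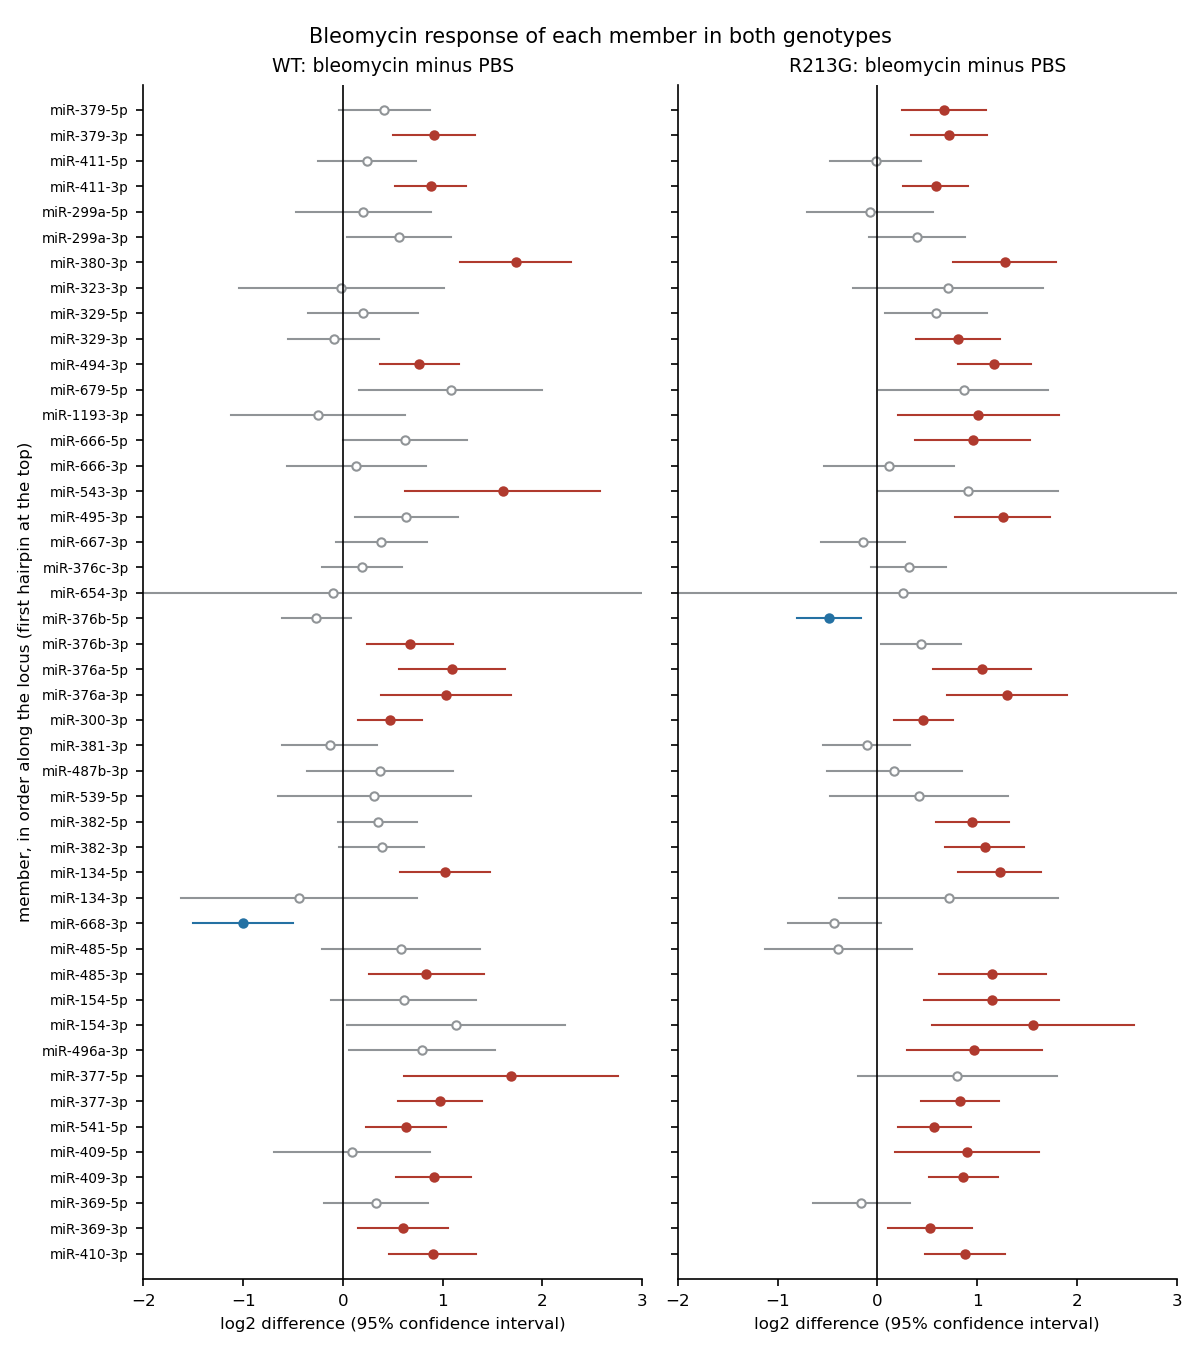
Each row is a member, from the first hairpin of the locus at the top to the last at the bottom, and the x axis gives the log2 difference between bleomycin and PBS with its 95% confidence interval, WT on the left and R213G on the right. Filled red points mark 17 members that rose in WT and 25 in R213G, filled blue points the 1 that fell in each, open grey points those not called, and the intervals of miR-654-3p run past the axis.

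A set of 14 members rose in both genotypes: miR-379-3p, miR-411-3p, miR-380-3p, miR-494-3p, miR-376a-5p, miR-376a-3p, miR-300-3p, miR-134-5p, miR-485-3p, miR-377-3p, miR-541-5p, miR-409-3p, miR-369-3p and miR-410-3p. They were 82.4% of the members that rose in WT and 56% of those that rose in R213G (77.6% and 57.1% over all tested miRNAs).

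The largest of these differences in WT was that of miR-380-3p. In WT its level was 4.90, 4.57 and 6.04 after PBS and 7.08, 6.97, 6.81 and 6.78 after bleomycin. In R213G it was 5.38, 5.10, 5.73 and 5.37 after PBS and 6.81, 6.61, 6.51 and 6.77 after bleomycin. The groups did not overlap in either genotype, and WT PBS replicate 3 was the PBS library nearest to the bleomycin group. The rise was 1.73 ± 0.26 (SE) in WT, 3.33-fold, with an adjusted p of 0.00016, and 1.28 ± 0.24 in R213G, 2.42-fold, with an adjusted p of 0.000716. With WT PBS replicate 3 left out, the WT rise was 2.17.

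miR-134-5p, known in neurons for its part in dendritic spine size through Limk1, was nearly constant within the WT bleomycin group. Its WT level was 6.76, 6.76 and 7.28 after PBS and 7.96, 7.90, 7.93 and 8.03 after bleomycin. In R213G the level was 7.13, 6.25, 7.14 and 6.97 after PBS, and 8.24, 7.68, 8.30 and 8.17 after bleomycin. It rose about 2-fold in both, by 1.02 ± 0.21 in WT (adjusted p 0.00206) and by 1.23 ± 0.20 in R213G (adjusted p 0.000194), with no overlap. In the fit that omits WT PBS replicate 3, the WT rise of miR-134-5p was 1.19.

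At the end of the locus, miR-410-3p and miR-409-3p rose in both genotypes. miR-410-3p stood at 8.99, 8.87 and 9.99 in WT PBS and at 10.15, 10.27, 10.14 and 10.18 in WT bleomycin lungs. In R213G lungs miR-410-3p was at 9.39, 9.03, 9.26 and 9.33 after PBS and at 10.00, 10.22, 9.91 and 10.39 after bleomycin. It rose by 0.90 ± 0.21 in WT (adjusted p 0.00369) and by 0.88 ± 0.19 in R213G (adjusted p 0.00178). In WT, PBS replicate 3 lay just below the bleomycin group, and without it the rise was 1.25. miR-409-3p, often studied in tumour cell invasion, had levels of 7.99, 7.67 and 8.54 in WT PBS against 9.20, 8.87, 8.99 and 8.84 in WT bleomycin lungs. Its R213G levels were 8.00, 7.70, 7.93 and 7.99 after PBS and 8.60, 8.77, 8.69 and 9.01 after bleomycin. The rise of miR-409-3p was 0.91 ± 0.18 (adjusted p 0.00122) and 0.86 ± 0.16 (adjusted p 0.000699), with all bleomycin libraries above all PBS libraries, and 1.15 in WT without WT PBS replicate 3.

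miR-494-3p, described as a repressor of vessel growth after ischaemia, had the smallest p of all members in R213G. It was at 4.44, 4.77, 4.87 and 4.72 after PBS and at 6.23, 5.86, 5.56 and 5.85 after bleomycin there, a rise of 1.17 ± 0.17 (2.26-fold, adjusted p 8.89e-05). In WT it went from 4.95, 5.01 and 5.32 to 5.93, 5.82, 5.71 and 5.97, a rise of 0.77 ± 0.19 (adjusted p 0.00559). WT PBS replicate 3 was again the highest PBS library, but stayed below every bleomycin library, and without it the rise was 0.88.

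The pair that shares a seed rose together. miR-379-3p rose by 0.91 ± 0.19 in WT (adjusted p 0.00236) and by 0.72 ± 0.18 in R213G (adjusted p 0.00472), and miR-411-3p by 0.88 ± 0.17 (adjusted p 0.00106) and 0.58 ± 0.16 (adjusted p 0.00675). Once WT PBS replicate 3 was left out, the WT rises were 1.16 and 1.11. In all 4 of these comparisons each bleomycin library was above each PBS library. Because the strands differ at 2 bases, reads of miR-379-3p and miR-411-3p may have been shared by the counting, which was not tested.

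Both strands of miR-376a, a hairpin whose relatives are known targets of A-to-I editing by ADAR enzymes, rose about 2-fold. miR-376a-5p was at 4.24, 3.22 and 4.37 in WT PBS and at 5.05, 5.01, 4.89 and 5.18 in WT bleomycin lungs, and miR-376a-3p at 4.35, 4.07 and 4.67 against 4.97, 5.88, 5.53 and 5.23. The WT differences were 1.09 ± 0.25 and 1.04 ± 0.31, and the R213G differences 1.05 ± 0.23 and 1.30 ± 0.29. Without WT PBS replicate 3 the WT differences were 1.31 and 1.19. Adjusted p was between 0.00188 and 0.0185 for these 4 comparisons, and the highest, that of miR-376a-3p in WT, was lost without WT PBS replicate 1 (0.0538), without WT PBS replicate 2 (0.0863) or without WT bleomycin replicate 2 (0.0623).

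Other members called in both genotypes moved less than 2-fold in WT. miR-377-3p, studied in the diabetic kidney for its link to fibronectin, rose by 0.97 ± 0.20 in WT and 0.83 ± 0.18 in R213G. miR-485-3p rose by 0.84 ± 0.27 and 1.15 ± 0.25, miR-541-5p by 0.63 ± 0.19 and 0.57 ± 0.17, miR-300-3p by 0.47 ± 0.15 and 0.46 ± 0.14, and miR-369-3p by 0.60 ± 0.21 and 0.53 ± 0.20. With WT PBS replicate 3 left out, the WT rises were 1.08 for miR-377-3p, 0.98 for miR-485-3p, 0.67 for miR-300-3p and 0.85 for miR-369-3p. Their adjusted p with all libraries ran from 0.00164 (miR-377-3p in WT) to 0.0452 (miR-369-3p in WT). miR-369-3p was the least firm of them: its call was lost in 16 of 25 alternatives in WT and in 9 of 25 in R213G. The WT call was also lost in 8 alternatives for miR-485-3p, in 6 for miR-300-3p and in 3 for miR-541-5p, among them the fits without WT PBS replicate 1 and without WT PBS replicate 2 for all 3.

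miR-541-5p carried much of the summed count, so its libraries are given. Its WT level was 11.05, 11.07 and 12.03 after PBS and 12.13, 11.98, 11.99 and 11.96 after bleomycin, so WT PBS replicate 3 lay inside the bleomycin range. In R213G it was 11.25, 11.36, 11.43 and 11.65 after PBS and 11.96, 12.13, 11.74 and 12.15 after bleomycin, with no overlap. In the fit that omits WT PBS replicate 3, the WT difference was 0.95.

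**Figure D3:**
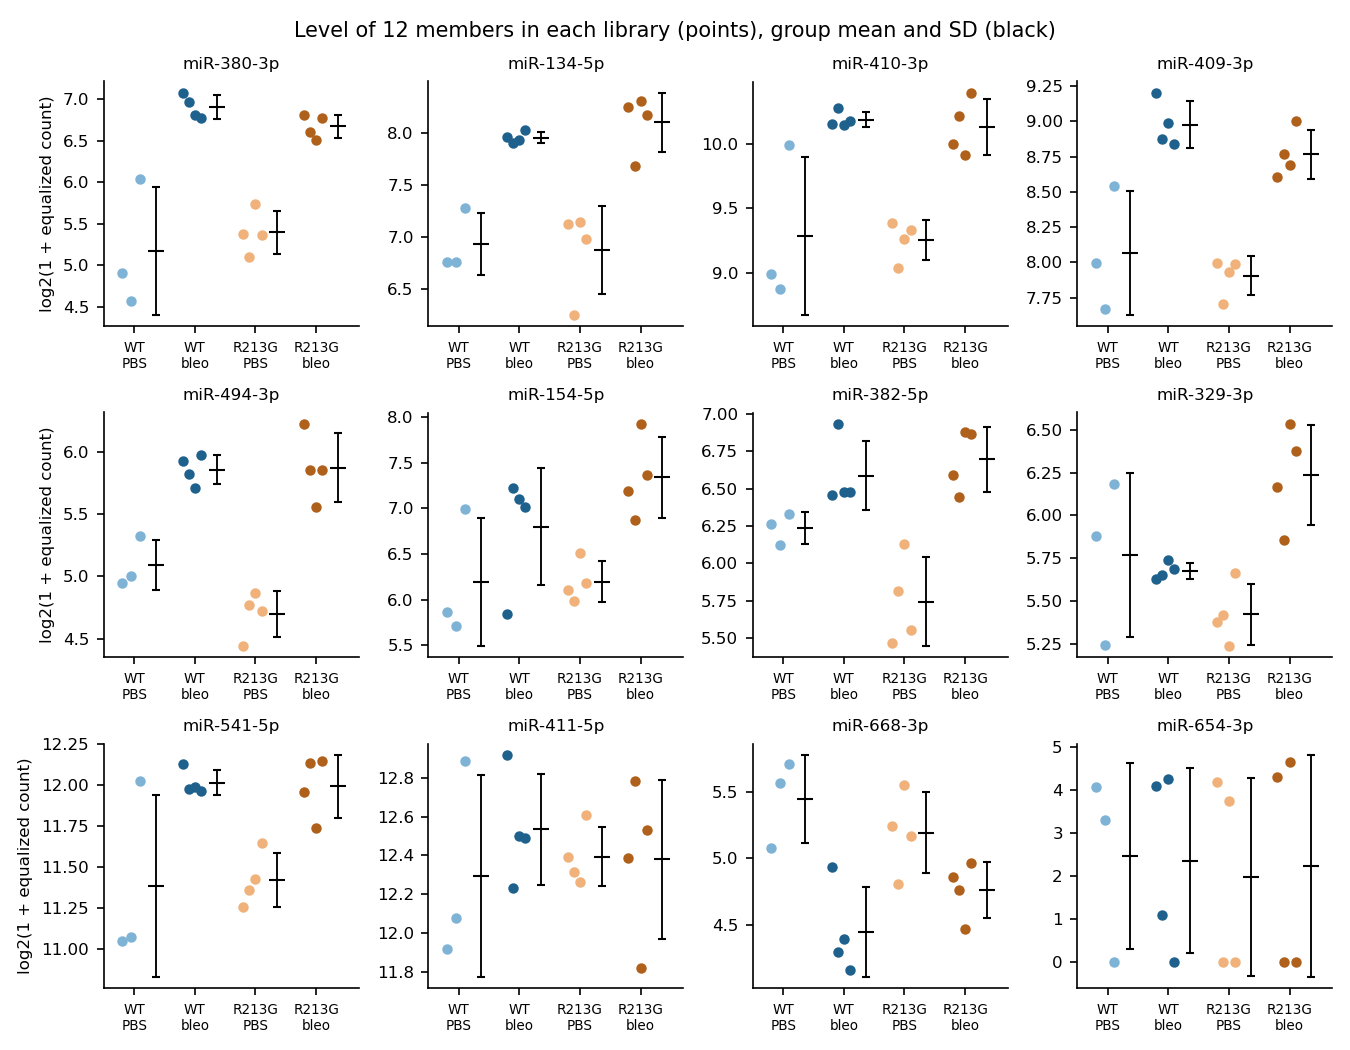
Each panel shows 1 member's log2 level in every library (points, coloured by group) with the group mean and SD in black; the vertical axes differ and do not start at 0. For miR-380-3p, miR-134-5p, miR-410-3p, miR-409-3p and miR-494-3p all bleomycin points lie above all PBS points of the same genotype, and miR-654-3p falls into values at or near 0 and values above 3 in every group.

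A further 11 members were called as rising in R213G and not in WT: miR-379-5p, miR-329-3p, miR-1193-3p, miR-666-5p, miR-495-3p, miR-382-5p, miR-382-3p, miR-154-5p, miR-154-3p, miR-496a-3p and miR-409-5p. None of them differed between genotypes in its response after adjustment, and 5 of them (miR-666-5p, miR-495-3p, miR-154-5p, miR-154-3p and miR-496a-3p) were called in WT once WT PBS replicate 3 was left out. Among both the 11 and the 5 is miR-154-3p, which passed the filter only through bleomycin libraries. Its difference is therefore given below as a description.

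Both strands of miR-382, a miRNA studied in kidney fibrosis where it was linked to the mitochondrial superoxide dismutase, belonged to this set. miR-382-5p was at 5.47, 5.82, 6.13 and 5.55 in R213G PBS and at 6.59, 6.44, 6.88 and 6.87 in R213G bleomycin lungs, a rise of 0.95 ± 0.17 (1.94-fold, adjusted p 0.000519). In WT it was at 6.27, 6.12 and 6.33 against 6.46, 6.93, 6.48 and 6.48, a difference of 0.35 ± 0.19 (adjusted p 0.178). The R213G PBS libraries were the low ones, and the bleomycin groups of both genotypes overlapped. miR-382-3p rose by 1.08 ± 0.19 in R213G (adjusted p 0.000392) and differed by 0.39 ± 0.20 in WT (adjusted p 0.164). The response of miR-382-5p was larger in R213G by 0.60 (95% interval 0.06 to 1.15, adjusted p 0.601) and that of miR-382-3p by 0.69 (0.10 to 1.27, adjusted p 0.587), so neither difference passed the test. Once WT PBS replicate 3 was left out, the WT differences were 0.39 for miR-382-5p and 0.32 for miR-382-3p.

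The strands of miR-154, the member best known from fibrotic lung, were higher after bleomycin in R213G. miR-154-5p was at 6.11, 5.99, 6.51 and 6.18 after PBS and at 7.19, 6.88, 7.93 and 7.37 after bleomycin, a rise of 1.15 ± 0.32 (2.21-fold, adjusted p 0.00894) with no overlap. WT values of miR-154-5p were 5.87, 5.71 and 6.99 after PBS and 5.84, 7.23, 7.11 and 7.02 after bleomycin. Here WT PBS replicate 3 was high and WT bleomycin replicate 1 low, each beside the other group, and the difference of 0.61 ± 0.34 was not called (adjusted p 0.202). It passed without WT PBS replicate 3 (1.01, adjusted p 0.0301) and without WT bleomycin replicate 1 (0.93, adjusted p 0.0324).

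miR-154-3p lay near the filter, with levels of 1.93, 0.87, 2.05 and 2.70 in R213G PBS and 3.58, 3.13, 3.78 and 3.30 in R213G bleomycin lungs. The difference was 1.56 ± 0.48, given as a description and not as a result of the test, since only 2 PBS libraries against 7 bleomycin libraries held a count above 5. In WT it was at 1.34, 1.34 and 3.11 after PBS and at 3.08, 3.27, 3.84 and 2.07 after bleomycin, a difference of 1.14 ± 0.52, or 1.73 without WT PBS replicate 3. The libraries with low counts of miR-154-3p limit what either comparison can resolve.

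miR-329-3p, miR-495-3p and miR-494-3p are known together from work in which their inhibition increased blood flow recovery. miR-329-3p was at 5.38, 5.42, 5.24 and 5.66 in R213G PBS and at 6.17, 5.86, 6.54 and 6.37 in R213G bleomycin lungs, a rise of 0.81 ± 0.20 (adjusted p 0.00396). In WT it was at 5.88, 5.24 and 6.18 against 5.63, 5.65, 5.74 and 5.69, so the bleomycin libraries lay inside the PBS range (difference -0.09 ± 0.21, adjusted p 0.775). Without WT PBS replicate 3 that difference was 0.11. miR-495-3p rose by 1.26 ± 0.23 in R213G (2.39-fold, adjusted p 0.0005) and differed by 0.64 ± 0.25 in WT (adjusted p 0.0666), where all bleomycin libraries were nevertheless above all PBS libraries, and it passed without WT PBS replicate 3 (0.80, adjusted p 0.0315).

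The rest of this set had lower or more scattered levels. miR-379-5p rose by 0.67 ± 0.20 in R213G (adjusted p 0.0133) although its groups overlapped, since bleomycin replicate 2 stood at 7.51 and PBS replicate 3 at 7.53. miR-666-5p rose by 0.96 ± 0.27, miR-496a-3p by 0.97 ± 0.32, miR-409-5p by 0.90 ± 0.34 and miR-1193-3p by 1.01 ± 0.38, with adjusted p between 0.0104 and 0.0435. The WT differences with all libraries and without WT PBS replicate 3 were 0.42 and 0.50 for miR-379-5p, 0.62 and 0.91 for miR-666-5p, 0.79 and 1.27 for miR-496a-3p, 0.09 and 0.29 for miR-409-5p, and -0.25 and 0.23 for miR-1193-3p. The R213G call of miR-409-5p was lost in 11 of 24 alternatives, with a difference of 0.63 (adjusted p 0.16) without R213G bleomycin replicate 4, and that of miR-496a-3p in 3 of 25. For miR-1193-3p the call was lost in 11 of 24 alternatives, including those without any of the 4 R213G bleomycin libraries and those without R213G PBS replicate 1, 2 or 3.

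The members called as rising in WT and not in R213G were 3. miR-543-3p was at 2.11, 3.54 and 4.79 in WT PBS and at 5.27, 4.77, 5.18 and 5.10 in WT bleomycin lungs, a rise of 1.60 ± 0.46 (adjusted p 0.016) in which WT PBS replicate 3 overlapped the bleomycin group. The same miRNA differed by 0.91 ± 0.43 in R213G (adjusted p 0.0968), and without WT PBS replicate 1, its lowest library, the WT call was lost (adjusted p 0.109). miR-377-5p rose by 1.68 ± 0.51 in WT (adjusted p 0.0205), against 0.80 ± 0.47 in R213G (adjusted p 0.184). Its WT PBS levels were 2.84, 0.27 and 2.57 and its WT bleomycin levels 2.92, 3.76, 4.40 and 3.23, so the highest PBS library and the lowest bleomycin library were nearly level. Without WT PBS replicate 2, its lowest library, the WT difference of miR-377-5p was 0.87 and the call was lost (adjusted p 0.134), as it was without WT bleomycin replicate 3 (1.41, adjusted p 0.063) and with the compared groups alone in the fit (adjusted p 0.084). miR-376b-3p rose by 0.67 ± 0.21 in WT (adjusted p 0.0216) and differed by 0.44 ± 0.19 in R213G (adjusted p 0.0753), and its WT call was lost without WT PBS replicate 1, WT PBS replicate 2 or WT bleomycin replicate 4. With WT PBS replicate 3 left out, the WT rises were 2.26 for miR-543-3p, 2.02 for miR-377-5p and 0.96 for miR-376b-3p. In R213G both miR-543-3p (adjusted p 0.032) and miR-376b-3p (adjusted p 0.0254) passed once WT PBS replicate 3 was left out of the shared fit.

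Against the general direction, miR-668-3p fell in WT. It was at 5.08, 5.56 and 5.71 after PBS and at 4.94, 4.30, 4.39 and 4.17 after bleomycin, a difference of -1.001 ± 0.24 (adjusted p 0.00482) with no overlap, which was -0.87, adjusted p 0.0218, once WT PBS replicate 3 was left out. R213G levels of miR-668-3p were 5.24, 4.81, 5.55 and 5.17 after PBS and 4.86, 4.76, 4.47 and 4.96 after bleomycin, a difference of -0.43 ± 0.22 that did not pass (adjusted p 0.131). The hairpin of miR-668 lies between those of miR-134 and miR-485, of which miR-134-5p and miR-485-3p rose in both genotypes. Their other strands, miR-134-3p and miR-485-5p, were called in neither.

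miR-376b-5p fell in R213G and was the only member to do so. Its levels were 7.85, 7.55, 7.83 and 7.48 after PBS and 7.28, 6.99, 7.27 and 7.25 after bleomycin, a difference of -0.48 ± 0.15 (adjusted p 0.0174). In WT the difference was -0.27 ± 0.16 (adjusted p 0.232), or -0.11 without WT PBS replicate 3, with overlapping groups. The R213G call was lost without R213G bleomycin replicate 2 (adjusted p 0.05), without R213G PBS replicate 1 (0.0539) and without R213G PBS replicate 3 (0.0505).

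In 16 members neither genotype gave a call. The most abundant of all, miR-411-5p, was among them, at 11.92, 12.08 and 12.89 in WT PBS, 12.92, 12.23, 12.50 and 12.49 in WT bleomycin, 12.39, 12.31, 12.26 and 12.61 in R213G PBS and 12.39, 12.78, 11.82 and 12.53 in R213G bleomycin lungs. The 4 groups overlapped, and the differences were 0.24 ± 0.23 in WT (95% interval -0.25 to 0.73) and -0.01 ± 0.22 in R213G (-0.47 to 0.44). WT PBS replicate 3 was the highest WT PBS library of miR-411-5p too, and without it the WT difference was 0.54 (adjusted p 0.0692). miR-381-3p, high as well and 1 seed base from miR-300-3p, differed by -0.13 ± 0.22 and -0.11 ± 0.21. Its WT PBS replicate 3 was the highest of all 15 libraries at 10.43. miR-376c-3p differed by 0.20 ± 0.19 and 0.31 ± 0.18, miR-487b-3p by 0.37 ± 0.35 and 0.17 ± 0.32, and miR-539-5p by 0.31 ± 0.46 and 0.42 ± 0.42. In the fit that omits WT PBS replicate 3, the WT differences were 0.20 for miR-381-3p, 0.29 for miR-376c-3p, 0.85 for miR-487b-3p (adjusted p 0.048) and 0.85 for miR-539-5p (adjusted p 0.184). The remaining members of this set were miR-299a-5p, miR-299a-3p, miR-323-3p, miR-329-5p, miR-679-5p, miR-666-3p, miR-667-3p, miR-134-3p, miR-485-5p, miR-369-5p and miR-654-3p.

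miR-654-3p was the only member listed at 0 in any library, and was picked out after its values were seen. It stood at 4.07, 3.31 and 0 in WT PBS, 4.09, 1.09, 4.26 and 0 in WT bleomycin, 4.19, 0, 3.75 and 0 in R213G PBS and 4.30, 0, 4.65 and 0 in R213G bleomycin lungs. Every group thus held libraries at 0 and libraries above 3, and neither treatment nor genotype separated them. In the 3 groups of 4, replicates 1 and 3 were high and replicates 2 and 4 at or near 0. Among the R213G libraries the 4 with the lowest tag numbers stood at 3.75 to 4.65 and the 4 with the highest at 0, in both treatments. The WT libraries did not divide at 1 point over both treatments: in the order of their tags they stood at 4.09, 4.26, 1.09, 0, 3.31, 4.07 and 0. Within each WT treatment group, however, the lower tags stood above 3 and the higher tags at or near 0. WT PBS replicate 3, at 0 here, has the highest tag of the WT libraries. The labels do not say what libraries with neighbouring tags share. With a term for the tag order, 17 members rose in WT and 26 in R213G. That term covered the R213G libraries alone, evenly over both treatments. It therefore could not move any difference and could change only the estimated spread.

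**Figure D4:**
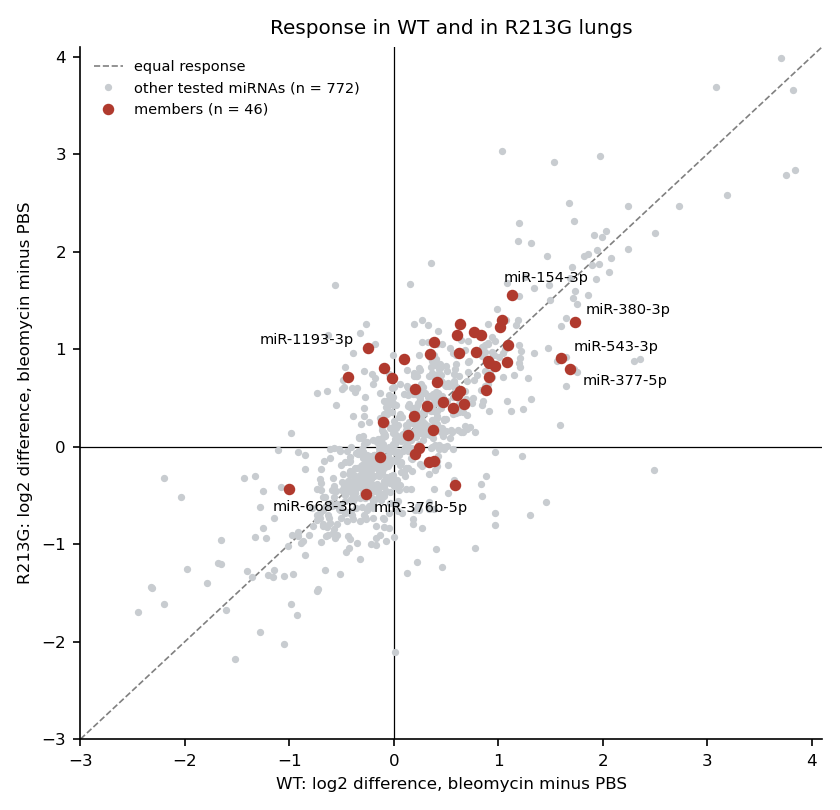
Each point is a tested miRNA, with its WT log2 difference between bleomycin and PBS on the x axis and its R213G difference on the y axis; members are red, the other tested miRNAs grey, and the dashed line marks equal responses. Of the 46 members, 36 lie in the quadrants where both differences have the same sign, with miR-380-3p farthest out and miR-668-3p and miR-376b-5p at the lower left.

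Genotype was then compared within each treatment. Of the 46 members 0 differed between R213G and WT after PBS (0% of all tested), 0 after bleomycin (0% of all tested) and 0 in the size of the response (0% of all tested), by limma at an adjusted p under 0.05. At an unadjusted p under 0.05 there were 1, 2 and 4 members, beside 44, 97 and 65 of 818 tested miRNAs. The median half-width of the members' unadjusted 95% intervals was 0.52 after PBS, 0.48 after bleomycin and 0.71 for the difference of responses. Differences smaller than these could not be resolved for a typical member. Larger ones could also miss the adjusted threshold, as that of miR-369-5p after bleomycin did. The member with an unadjusted p under 0.05 after PBS was miR-382-5p, lower in R213G by 0.50 (95% interval -0.89 to -0.10, adjusted p 0.717). After bleomycin they were miR-369-5p, at -0.81 ± 0.23 (adjusted p 0.232), and miR-329-3p, at 0.56 ± 0.20 (adjusted p 0.387).

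For the difference of responses the 4 were miR-329-3p (0.90 ± 0.29, adjusted p 0.523), miR-382-3p, miR-382-5p and miR-1193-3p (1.26 ± 0.56, adjusted p 0.601). WT PBS replicate 3 bears on these values. Without it, 11 members had an unadjusted p under 0.05 for genotype after PBS and 11 for the difference of responses, beside 81 and 89 of 818 tested miRNAs (9.9% and 10.9%), and still 0 passed adjustment in either. The response difference of miR-329-3p was then 0.70 (adjusted p 0.394) and that of miR-1193-3p 0.78 (adjusted p 0.619). Of the 11 for the difference of responses, miR-329-3p and miR-382-3p (0.755, adjusted p 0.394) had larger responses in R213G. The others had smaller ones, among them miR-380-3p (-0.89, adjusted p 0.394). The 11 for genotype after PBS were all higher in R213G.

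Both strands of a hairpin come from the same transcript, so the level of 5p minus that of 3p gives the balance of the strands. Because 1 was added to each count, this is free of the amount of hairpin only where both strands are well counted. Where a strand is rare, such as miR-134-3p, miR-154-3p, miR-377-5p or miR-409-5p, the difference can also shift with the amount. Among the 14 hairpins with both strands, 7 had the 3p strand higher on average, with the arms between 1.06-fold (miR-666) and 37.7-fold (miR-409, 3p higher) apart. Comparing deposited values between strands ignores any bias of library preparation, whereas comparing a strand balance between groups does not depend on it where it is constant. After bleomycin the balance changed in 1 of 14 hairpins in WT, beside 7.69% of the 234 hairpins tested, and in 3 of 14 in R213G, beside 26.9%. In limma 0 of 14 hairpins differed between genotypes after PBS, after bleomycin or in the size of the change, with 1 of 14 in each at an unadjusted p under 0.05.

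The balance of miR-376b moved toward the 3p strand in both genotypes. It was 1.79 ± 0.31 (SD) in WT PBS and 0.85 ± 0.24 in WT bleomycin lungs, a change of -0.94 (adjusted p 0.0119), and 1.73 ± 0.26 in R213G PBS and 0.81 ± 0.11 in R213G bleomycin lungs, a change of -0.92 (adjusted p 0.0037). All bleomycin libraries were below all PBS libraries of the same genotype. The WT change was not called without WT PBS replicate 2 (-0.77, adjusted p 0.105) and was -1.07 (adjusted p 0.0145) without WT PBS replicate 3.

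miR-485 and miR-411 were called in R213G. The balance of miR-485 went from 0.27 ± 0.46 after PBS to -1.27 ± 0.32 after bleomycin, a change of -1.54 (adjusted p 0.00437), and none of the 15 fits that left out a library lost the call. In WT it was -0.59 ± 0.86 after PBS, with WT PBS replicate 1 well below the others, and -0.85 ± 0.25 after bleomycin. The balance of miR-411 went from 4.73 ± 0.13 to 4.13 ± 0.44 in R213G (change -0.60, adjusted p 0.0385) and from 4.84 ± 0.19 to 4.20 ± 0.36 in WT (change -0.64, adjusted p 0.0839). Once WT PBS replicate 3 was left out, the WT change was -0.57 for miR-411 and -0.046 for miR-485. The R213G call of miR-411 was lost in 6 of the 15 fits that left out a library, namely R213G bleomycin replicates 1, 3 and 4 and R213G PBS replicates 1, 2 and 4.

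**Figure D5:**
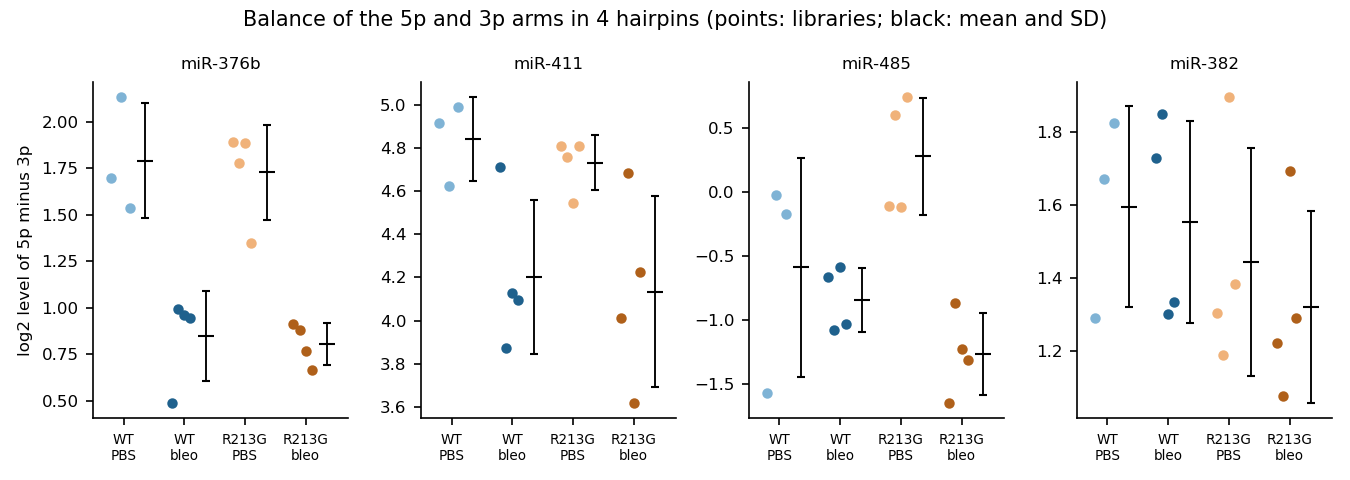
The vertical axis gives the log2 level of the 5p strand minus that of the 3p strand for 4 hairpins, with points for libraries and black marks for the group mean and SD; axes do not start at 0. Bleomycin points lie below PBS points in both genotypes for miR-376b and in R213G for miR-485, while the groups of miR-382, of which both strands rose in R213G, overlap.

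Seen by strand, 4 of 17 5p members rose in WT, beside 18.6% of all 334 tested 5p miRNAs, and 13 of 29 3p members, beside 14.8% of 427. In R213G 8 of 17 5p members rose, beside 25.1%, and 17 of 29 3p members, beside 20.4%. Without WT PBS replicate 3 the WT counts were 7 and 19. The 17 3p risers in R213G and these 19 include miR-154-3p, which passed the filter only through bleomycin libraries. The medians of the 5p and 3p members were 0.42 and 0.60 in WT and 0.67 and 0.72 in R213G. Without WT PBS replicate 3 the WT medians were nearly equal, at 0.846 and 0.851. Among the seed neighbours, miR-379-3p, miR-411-3p and miR-410-3p rose in both genotypes, as did miR-485-3p and miR-369-3p. miR-300-3p and miR-376a-3p rose in both, where their neighbours miR-381-3p was called in neither and miR-376b-3p in WT. miR-379-5p was called in R213G and miR-377-5p in WT, and their neighbours miR-411-5p and miR-329-5p in neither. The differences between neighbours were not tested. Among the 12 members holding GGUNNAC, 6 rose in WT and 8 in R213G, with medians of 0.90 and 0.79, beside 16.4% and 22.2% of all tested miRNAs, and this grouping was made with the values in view. With WT PBS replicate 3 left out, the WT count was 9 and the WT median 1.13, and miR-154-3p is among these 9 and among the 8 in R213G.

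Counts by position along the locus were as follows. With the hairpins in 3 stretches of the locus, 4 of 15 members of the first stretch, 5 of 13 of the middle and 8 of 18 of the last rose in WT (16.4% of all tested miRNAs), and 8, 4 and 13 in R213G (22.2%). In the fit that omits WT PBS replicate 3, the WT counts were 7, 8 and 11. These 11 and the 13 in R213G include miR-154-3p, which passed the filter only through bleomycin libraries. The medians from first to last were 0.42, 0.39 and 0.62 in WT and 0.71, 0.42 and 0.87 in R213G. Without WT PBS replicate 3 the WT medians were 0.68, 0.80 and 0.97, so the middle stretch was then not the lowest in WT. Across the 46 members, Spearman's rho between the response and the order along the locus was 0.13 in WT and 0.08 in R213G, and between the response and the mean level 0.09 and -0.14. These are descriptions over members that share libraries and, in pairs, a hairpin. The 18 members with a mean level of 6 or higher gave 10 risers in WT and 12 in R213G, beside 19.4% and 25.8% of all tested miRNAs at such levels. Without WT PBS replicate 3 the WT count of these 18 was 12. The 28 members below a mean level of 6 gave 7 and 13, beside 13.4% and 18.7%, and 14 in WT without WT PBS replicate 3. Here too miR-154-3p is among the 13 and the 14.

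As a share of all equalized counts the members were small. Their sum was 0.0424%, 0.0406% and 0.0869% in the 3 WT PBS libraries and 0.0767% to 0.0915% in the 4 WT bleomycin libraries. In R213G the sum was 0.0503% to 0.0619% after PBS and 0.0609% to 0.0937% after bleomycin. WT PBS replicate 3 had a sum inside the WT bleomycin range, and R213G bleomycin replicate 3 lay just below the highest R213G PBS library. Group means were 0.0566% ± 0.0262 (SD, n = 3), 0.0812% ± 0.0069 (n = 4), 0.0549% ± 0.0050 (n = 4) and 0.0816% ± 0.0151 (n = 4) in the same order, and 0.0415% in WT PBS without replicate 3. Without miR-411-5p, which alone made up 28.1% to 46.0% of the sum, the R213G groups no longer overlapped, at 0.0276% to 0.0334% after PBS and 0.0437% to 0.0611% after bleomycin. A sum over members was given no test.

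Other miRNAs of the Dlk1-Dio3 region lie upstream, many of them on the strand opposite to Rtl1. Of 19 such miRNAs past the filter, 3 rose in WT (miR-433-5p, miR-434-5p and miR-540-3p) and 6 in R213G (miR-127-5p, miR-337-3p, miR-431-3p, miR-434-5p, miR-434-3p and miR-540-3p), with medians of 0.27 and 0.44. Over all tested miRNAs 16.4% rose in WT and 22.2% in R213G. Without WT PBS replicate 3 the WT count was 8, beside 19.9%, and the WT median 0.499. miR-127-3p, the highest of them with a mean level of 15.12, differed by 0.06 in WT (adjusted p 0.775) and by 0.30 in R213G (adjusted p 0.0734). Between this group and the polycistron, miR-341-3p rose by 1.17 in WT (adjusted p 0.00215) and by 1.24 in R213G (adjusted p 0.000519), and miR-370-3p was not called.

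Members varied together within groups, largely through 1 library. After group means were removed, the median Pearson correlation over the 1035 pairs of members across 15 libraries was 0.33, against 0.02 over pairs of all tested miRNAs. Without WT PBS replicate 3 it was 0.05, against 0.01. Outside the region, the miRNAs whose deviations from their group means were most like the members' mean deviation over 15 libraries were miR-9-5p (r = 0.91), miR-490-3p (0.87), miR-133a-3p (0.86), miR-1a-1-5p (0.86) and miR-149-5p (0.86). Once WT PBS replicate 3 was left out, these were 0.66, 0.73, 0.495, 0.72 and 0.42. Inside the region miR-127-3p came first over 15 libraries, at 0.93, with miR-434-3p at 0.88. Without WT PBS replicate 3 miR-127-3p was at 0.82, below miR-434-3p at 0.89.

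Markers of other cell types moved with the treatments too. All 5 mesenchymal markers were in the table, and 3 (miR-199a-3p, miR-199a-5p and miR-214-3p) rose in each genotype. Of the others miR-145a-5p fell in WT and miR-143-3p in R213G. The list's summed share was 14.6% to 16.3% in WT PBS, 13.7% to 15.3% in WT bleomycin, 13.7% to 15.6% in R213G PBS and 12.7% to 14.96% in R213G bleomycin lungs. miR-214-3p, made together with a copy of miR-199a, rose by 0.71 in WT and by 0.86 in R213G. Of 5 leukocyte markers miR-142a-3p, miR-142a-5p and miR-511-3p rose in WT (share 0.515% to 0.631% after PBS and 0.677% to 0.980% after bleomycin), and in R213G miR-142a-3p and miR-511-3p rose and miR-150-5p fell (0.721% to 0.787% and 0.660% to 0.872%). Of 3 erythroid markers miR-451a and miR-486a-5p fell in WT (0.369% to 1.08% after PBS and 0.120% to 0.169% after bleomycin) and miR-486a-5p in R213G (0.350% to 1.01% and 0.221% to 0.715%). Of 5 epithelial markers miR-200c-3p fell in WT, and miR-200a-3p, miR-200b-3p and miR-375-3p fell in R213G. Of 2 endothelial markers miR-126a-3p fell in R213G.

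Striated muscle markers were high in the WT PBS library that stood apart. miR-133a-3p was at 14.19, 13.88 and 16.24 in WT PBS replicates 1, 2 and 3, and miR-1a-3p at 9.49, 9.19 and 11.57. The summed share of that list was 0.0634% to 0.390% in WT PBS, 0.0409% to 0.0677% in WT bleomycin, 0.0942% to 0.131% in R213G PBS and 0.0188% to 0.0457% in R213G bleomycin lungs. Of its 3 miRNAs 2 passed the filter, of which miR-133a-3p fell in WT and both fell in R213G. Neural markers, of interest because the polycistron is high in brain, made up 0.0115% to 0.0206%, 0.0127% to 0.0184%, 0.0147% to 0.0270% and 0.00916% to 0.0169% of the sum in the same order, and of the 4 only miR-128-3p was called, as falling in R213G. Of all 27 markers, 0 were at 0 in every library and 2 (miR-206-3p and miR-124-3p) were at 0 in some. What part any of these cell types had in the members' values was not tested.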

How the data were processed

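The authors made the small RNA libraries by Illumina protocols from miRNeasy RNA of flushed, frozen lung, per the labels' protocols. Bowtie2 2.3.2, SAMtools 1.9 and edgeR are named in the submitters' processing notes; the sources used here do not give the genome build, the miRBase release or the mismatch settings. The authors deposited log2 values per library for 1424 mature miRNAs. They were read, from the values alone, as the log2 of 1 plus an equalized count; read counts could not be recovered, so the edgeR test planned for counts was not run. The authors' deposited log2 fold changes, p-values and q-values were not used.

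A linear model of the 15 libraries, with each group's own mean, was fitted in R 4.3.3 with limma 3.58.1, its variance prior following the mean level, for 5 contrasts. Benjamini-Hochberg adjustment ran over the 818 miRNAs whose equalized count exceeded 5 in 3 or more libraries, and an adjusted p under 0.05 was called. Strand balance was fitted likewise over 234 hairpins. The procedure was tested on simulated data. Each library has its own tag and was taken as 1 mouse; where that fails, p-values measure only the spread between libraries. Named members were, per response, up to 10 risers and fallers of smallest p, the 8 of highest level, the 3 of smallest p per genotype contrast, and a list of 21 known members; those outside it (miR-377-5p, miR-666-5p, miR-496a-3p and miR-409-5p, called in 1 genotype, and miR-654-3p, at 0 in some libraries) were picked after their values were seen. Members and lists were chosen with earlier results of these data known. Alternatives covered left-out libraries, filters, pseudocount, scaling, variance model, weights, a replicate block, tag order, the fitted groups and the threshold.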

Additional observations from a re-analysis of the deposited data

Results flagged for a closer look

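In groups of 4 libraries, a lowest or highest value was marked when its gap to the next library took a share of the group's range above Dixon's 95% critical value, which chance does in about 1 of 20 groups. It happened in 9 of 114 groups looked at (7.89%), and 5 of the 9 concern WT bleomycin replicate 1. In that library miR-379-5p was low at 7.67 against 8.00 to 8.05 in the others (gap 0.858 of the range), miR-411-3p low at 8.21 against 8.36 to 8.39 (0.836) and miR-154-5p low at 5.84 against 7.02 to 7.23 (0.848). In the same library miR-541-5p was high at 12.13 against 11.96 to 11.99 (0.83), and the members' summed share was high at 0.0915% against 0.0767% to 0.0784% (0.881). Elsewhere, miR-382-5p was high in WT bleomycin replicate 2 (6.93 against 6.46 to 6.48, gap 0.95) and miR-382-3p was high in R213G PBS replicate 2 (4.63 against 4.17 to 4.23, gap 0.852). In R213G bleomycin replicate 2, miR-667-3p was low at 4.80 against 5.38 to 5.48 (gap 0.849) and miR-376b-5p at 6.99 against 7.25 to 7.28 (gap 0.871). WT PBS, with 3 libraries, was too small for this rule.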

How the results depend on the processing

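Over 27 settings, 83 differences of single members gave 2061 alternative values, of which 1935 kept direction and side of the threshold, 82 lost the call, 27 gained it and 17 changed sign. Of the 44 called responses 30 kept the call in every alternative and 0 changed sign. The causes of the changes were not tested.

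Leaving out 1 library gave 10 to 26 members rising in WT (10 without WT PBS replicate 2, 11 without WT PBS replicate 1, 26 without WT PBS replicate 3), 21 to 30 rising in R213G, 0 to 1 falling in R213G, and 0 to 2 hairpins with a changed strand balance in WT. Falling members were 2 in WT with quantile normalization and 2 in R213G with equal library medians, and hairpins in WT were 3 with a pseudocount of 5. Equal library medians moved the median of all tested miRNAs to -0.07 in WT and -0.08 in R213G. The members stayed 0.53 and 0.66 above it, which that setting could not change, since it shifts every miRNA of a library alike. With quantile normalization the members lay 0.42 and 0.61 above the median of all tested miRNAs.

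Differences near 0 changed sign as follows, each range being over the left-out libraries. miR-411-5p in R213G was 0.17 without R213G bleomycin replicate 3, 0.057 without R213G PBS replicate 4 and 0.038 with array weights. In WT miR-329-3p ran from -0.35 (without WT PBS replicate 2) to 0.11 (without WT PBS replicate 3), miR-1193-3p from -0.645 to 0.23 and miR-381-3p from -0.33 to 0.20, each without the same 2 libraries, and array weights gave 0.011 for miR-329-3p and 0.10 for miR-1193-3p. miR-667-3p in R213G ran from -0.22 (without R213G bleomycin replicate 1) to 0.012 (without replicate 2). In WT miR-487b-3p ran from -0.022 (without WT PBS replicate 1) to 0.85 (without WT PBS replicate 3), and miR-539-5p from -0.089 (without WT PBS replicate 2) to 0.85 (without WT PBS replicate 3). miR-409-5p in WT ran from -0.085 (without WT bleomycin replicate 2) to 0.35 (without WT bleomycin replicate 4), being -0.059 without WT PBS replicate 1, -0.023 with equal library medians and -0.19 with quantile normalization. With quantile normalization miR-539-5p was -0.087 in WT and -0.010 in R213G.

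Of 21 pairs of same-numbered libraries 9 correlated above 0.1 (median 0.065, from -0.15 to 0.26), among them all 3 replicate 3 pairs of the groups of 4. Of 63 pairs with different numbers 11 did (median -0.019, from -0.34 to 0.27). The numbers were not taken to pair the libraries, since the rule asked for every same-numbered pair above 0.1. Missing so strict a rule does not show that same-numbered libraries share nothing. With the replicate block 17 members rose in WT and 23 in R213G. The difference of responses was not run with the compared groups alone, since it needs all 4. Rare members such as miR-539-5p and miR-154-3p are limited by their counts, which cannot be recovered from the deposited values.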
